A study of Homo sapiens with 26 samples.

Results

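Ribonucleotide reductase and the enzymes of thymidylate synthesis supply the cell with deoxynucleotides. The members are 7 genes, RRM1, RRM2, RRM2B, TYMS, TK1, DTYMK and DUT, of 41078 in the deposited table. They were chosen by name as makers of the deoxynucleotides that compete with gemcitabine, a deoxycytidine analog used in pancreatic cancer, and each was found by its Ensembl identifier. Messenger RNA was measured once in each of 26 single cell-derived cell lines (SCDCLs), clones grown from single cells of the pancreatic ductal adenocarcinoma lines BxPC3 and Panc-1. Of these libraries, 12 carry the label BxPC3, a line called classical-like, and 14 the label Panc-1, called basal-like. The labels list gemcitabine as the treatment of all 26, whereas the methods describe it only for separate viability assays. Each SCDCL is 1 clone with 1 library, so the spread between libraries mixes differences between clones with those between cultures and preparations, and p-values measure that spread. The labels give no batch, sequencing date or drug response for a library.

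The libraries were divided by the level of SMAD4, a transducer of TGF-beta signals that BxPC3 cells have lost and Panc-1 cells retain. In 12 libraries SMAD4 was at most 0.0440 TPM, a transcript level adjusted for transcript length and library total, and these are called SMAD4-low here. In the other 14 it was between 28.1 and 52.2 TPM, and these are called SMAD4-expressing. Of the SMAD4-low libraries, 7 carried the Panc-1 and 5 the BxPC3 label, and of the SMAD4-expressing libraries 7 carried each, so SMAD4 went against the label of 14 libraries. The states hold 12 and 14 libraries, as the labels do. Whether the label or the SMAD4 level names the line of a library was not tested. A contrast of labels therefore need not compare the lines, and a contrast of states may do so. CDH1, the epithelial cadherin, was at 90.8 to 198 TPM in SMAD4-low libraries and at 0.338 to 7.74 TPM in the others, while VIM, a mesenchymal filament gene, was at 1.42 to 73.2 and at 3047 to 4526 TPM. Of the other epithelial markers EPCAM followed CDH1, whereas KRT8 (298 to 781 against 704 to 4005 TPM) and KRT18 (393 to 757 against 733 to 2732 TPM) overlapped with higher medians in SMAD4-expressing libraries. Of the other mesenchymal markers ZEB1 followed VIM, and CDH2 overlapped. The ductal keratin KRT19 was expressed in every library, at 558 to 3176 TPM. The fibroblast markers COL3A1, DCN and LUM and the leukocyte markers PTPRC and CD3E stayed at or below 1.87 TPM, and PDGFRB at or below 3.47 TPM. COL1A1 made up most of the summed fibroblast level, at 8.92 to 26.5 TPM in SMAD4-low and 2.06 to 38.5 TPM in SMAD4-expressing libraries, and CD68 most of the summed leukocyte level, at 5.27 to 26.9 and 42.5 to 141 TPM. Library totals ran from 27035724 to 34945608 estimated counts, and their ranges overlapped between the SMAD4 states. Because the states were made from measured values, levels are compared between them as a description, without a test.

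Ribonucleotide reductase converts ribonucleoside diphosphates to deoxyribonucleoside diphosphates. RRM1 encodes the large catalytic and regulatory subunit, which is the target of the diphosphate of gemcitabine, RRM2 encodes the small subunit of dividing cells, and RRM2B a small subunit induced by p53 that also serves resting cells. Thymidylate is made de novo by thymidylate synthase (TYMS) from dUMP, which dUTPase (DUT) provides by hydrolysing dUTP, or is salvaged from thymidine by the cytosolic thymidine kinase TK1. Thymidylate kinase (DTYMK) then carries dTMP from both routes towards dTTP.

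Both small subunits were separate between the SMAD4 states and the large subunit was not. RRM2 was 2.81-fold and RRM2B 3.0-fold higher by median in SMAD4-expressing libraries, with no overlap of the ranges, whereas RRM1 overlapped. Among the thymidylate genes, TYMS and DTYMK were higher by median in SMAD4-expressing libraries, and TK1 and DUT were lower, all with overlapping ranges. Thus 2 of 7 members did not overlap between the states, both being higher in SMAD4-expressing libraries. Of the 14763 genes with a mean of at least 1 TPM, 30.3% did not overlap, 15.8% being higher and 14.5% lower in SMAD4-expressing libraries, so that the share of members without overlap is near the background. In bulk libraries such as these, fewer cells of a kind and less RNA per cell cannot be told apart.

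**Figure D1:**
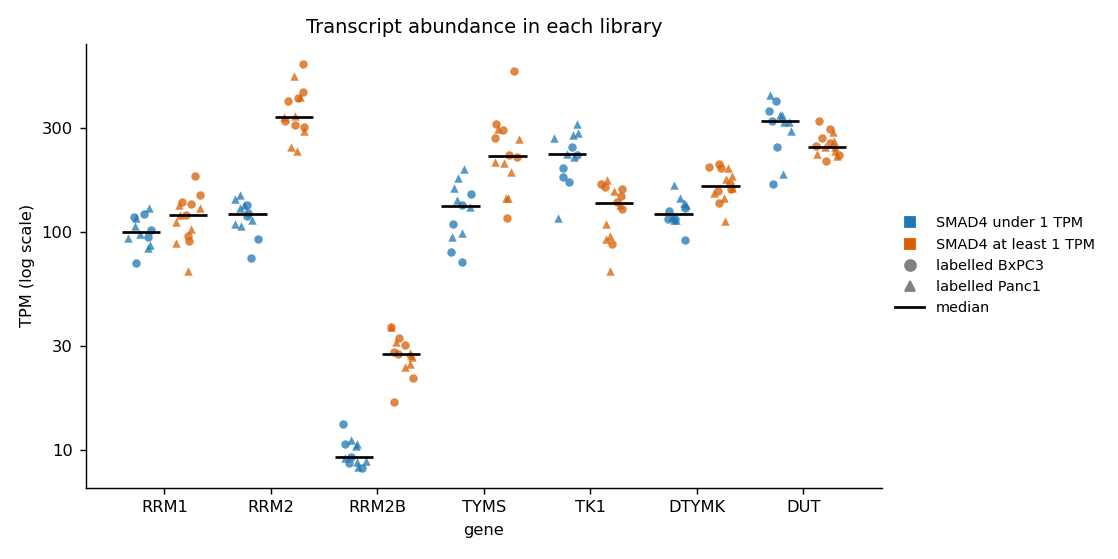
Transcript abundance of the members in each library, as TPM on a log axis, by SMAD4 state (colour) and label (marker shape), with the median of each state as a black line. The ranges of RRM2 and RRM2B are separate between the states, while those of the other 5 members overlap.

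RRM1 (ENSG00000167325) lies on GRCh38 chromosome 11 from 4094707 to 4138932, on the plus strand. Its level had a lowest value of 72.0, a median of 100.2 and a highest value of 128 TPM over the 12 SMAD4-low libraries. In the 14 SMAD4-expressing libraries the lowest was 66.3, the median 119.7 and the highest 180.4 TPM. The SMAD4-expressing libraries thus extended beyond the SMAD4-low ones on both sides, with 6 above the highest and 1 below the lowest. The ratio of the medians was 1.19, and 77.7% of all genes had a larger absolute difference of medians.

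RRM2 (ENSG00000171848, chromosome 2, 10120698 to 10211725, plus strand) was at 75.7, 121 and 147 TPM as lowest, median and highest in SMAD4-low libraries. In SMAD4-expressing libraries it was at 235, 339 and 591 TPM. The 5 SMAD4-low libraries labelled BxPC3 held 75.7, 93.1, 119, 122 and 133 TPM, and the 7 labelled Panc-1 ran from 107 to 147 TPM. Among the SMAD4-expressing libraries, those labelled BxPC3 ran from 304 to 591 TPM and those labelled Panc-1 from 235 to 522 TPM. Every library of either label with SMAD4 was therefore above every library without it. The difference of the medians on the log2(TPM + 1) scale was 1.48, and 20.8% of genes had a larger absolute difference.

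RRM2B (ENSG00000048392, chromosome 8, 102204502 to 102238961, minus strand) was the least abundant member in every library. It was at 8.30, 9.25 and 13.1 TPM as lowest, median and highest in SMAD4-low libraries and at 16.6, 27.7 and 36.7 TPM in SMAD4-expressing ones. The log2 difference of the medians was 1.49, as large as that of RRM2. The libraries labelled BxPC3 and SMAD4-low held 8.30, 8.74, 9.28, 10.6 and 13.1 TPM, and those labelled Panc-1 ran from 8.34 to 11.1 TPM. The SMAD4-expressing library with the least RRM2B, library 22, was the one with the most RRM1, RRM2, TYMS, DTYMK and DUT.

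TYMS (ENSG00000176890, chromosome 18, 657653 to 673578, plus strand) was at 72.7, 132 and 196 TPM as lowest, median and highest in SMAD4-low libraries and at 116, 224 and 551 TPM in SMAD4-expressing ones. The medians differed 1.70-fold, and 10 of 14 SMAD4-expressing libraries were above the highest SMAD4-low library. The value of 551 TPM came from library 22, and the next highest was 313 TPM. ENOSF1, which lies antisense to TYMS and overlaps it, was at 22.6 to 65.4 TPM in SMAD4-low and 22.8 to 64.0 TPM in SMAD4-expressing libraries, and whether the quantification used strand is not given in the sources used here.

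TK1 (ENSG00000167900, chromosome 17, 78174091 to 78187233, minus strand) went the other way. It was at 116, 228 and 312 TPM as lowest, median and highest in SMAD4-low libraries and at 66.4, 136 and 174 TPM in SMAD4-expressing ones, a 1.68-fold higher median in SMAD4-low libraries. Of the 12 SMAD4-low libraries, 10 were above the highest SMAD4-expressing library. The exceptions were library 4, labelled Panc-1, at 116 TPM and library 24, labelled BxPC3, at 170.3 TPM.

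DTYMK (ENSG00000168393, chromosome 2, 241675747 to 241686944, minus strand) had a lowest value of 91.7, a median of 121 and a highest value of 164 TPM in SMAD4-low libraries. In SMAD4-expressing libraries these were 113, 163 and 206 TPM, a 1.34-fold higher median with 7 of 14 libraries above the SMAD4-low range. DUT (ENSG00000128951, chromosome 15, 48331011 to 48343373, plus strand) was at 167, 323 and 424 TPM in SMAD4-low and at 213, 247 and 323 TPM in SMAD4-expressing libraries, a 1.31-fold higher median in SMAD4-low libraries. The DUT range of the SMAD4-expressing libraries lay inside that of the SMAD4-low ones, with 6 SMAD4-low libraries above it and 2 below it. Pseudogenes of RRM2, TYMS and DUT, which resemble their parent transcripts, reached at most 1.22 TPM in any library.

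The direction of all 7 differences of medians was the same on 3 other scales, namely CPM (counts scaled to a common total) with the TMM factors of edgeR, with DESeq2 size factors and on the library total alone. These counts were remade from TPM, so each scale differs from TPM mainly by a factor per library. The agreement was therefore close to fixed in advance and does not check the effect of transcript length or isoforms. The median difference over all genes was 0.023 on the log2(TPM + 1) scale. The error of quantification was small beside these differences, since the median coefficient of variation over 5 repeat quantifications of a library was between 1.03% for RRM2 and 2.70% for RRM2B. Mean effective transcript lengths, through which TPM depends on isoforms, overlapped between the states for every member. Their medians were nevertheless longer in SMAD4-expressing libraries for every member but RRM1. For DUT they were 686 in SMAD4-low and 788 in SMAD4-expressing libraries, for TYMS 1145 and 1262, and for RRM2 1497 and 1751 bases. The part of isoforms in the differences of level was not tested.

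The base sequence before the transcription start is shown for the members at the centre of the contrast between RRM1 and RRM2 and between TYMS and TK1. Entries for 6 members were matched in the RefSeq promoter table (GRCh38.p14), that is, all but RRM2B, and the 250 bases before the start nearest to the canonical GENCODE start were searched on both strands. The letters searched for E2F factors, which act at entry to S phase, were TTCCCGC as well as the similar words TTGGCGC and also TTCGCGC together with the word TTGCCGC, and they were found in 10.8% of 34943 such promoters, and the NF-Y letters CCAAT in 32%. The start used was the canonical one for every member searched except RRM1, where it lay 114 bases before the canonical start, and distances are counted from the start used. The capitals mark matches of E2F or NF-Y letters on either strand. RRM1 held 1 of each, an E2F match beginning 223 and an NF-Y match 28 bases before the start, in chr11:4094435-4094684 on the plus strand:
RRM1: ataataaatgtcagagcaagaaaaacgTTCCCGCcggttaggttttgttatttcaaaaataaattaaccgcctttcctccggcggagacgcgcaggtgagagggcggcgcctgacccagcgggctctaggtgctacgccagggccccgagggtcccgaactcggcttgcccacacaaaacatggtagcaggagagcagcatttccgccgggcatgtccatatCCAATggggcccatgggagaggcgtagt
TYMS held 1 E2F match, beginning 39 bases before the start, and no NF-Y letters in chr18:657403-657652 on the plus strand:
TYMS: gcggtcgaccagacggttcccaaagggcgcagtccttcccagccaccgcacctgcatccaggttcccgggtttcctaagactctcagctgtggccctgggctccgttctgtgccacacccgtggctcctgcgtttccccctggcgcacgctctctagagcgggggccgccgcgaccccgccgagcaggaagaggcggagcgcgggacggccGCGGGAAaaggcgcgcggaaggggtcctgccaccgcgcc

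For RRM2 and TK1, whose windows overlap the first exon of a longer annotated transcript, the matches are given with up to 10 bases on either side. RRM2 held 3 NF-Y matches and none of the E2F letters. They begin 123, 93 and 66 bases before the start, at chr2:10122606-10122630, chr2:10122636-10122660 and chr2:10122663-10122687 on the plus strand:
RRM2 at 123: caaggcgcagCCAATgggaagggtc
RRM2 at 93: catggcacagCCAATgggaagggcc
RRM2 at 66: ggcaccaaagCCAATgggaagggcc
Each CCAAT is followed by gggaaggg in the 3 copies. TK1 held 1 E2F match 12 bases before its start and 2 NF-Y matches on the opposite strand, 77 and 46 bases before it, at chr17:78187053-78187074, chr17:78187115-78187139 and chr17:78187084-78187108 on the minus strand:
TK1 at 12: agcggtcggcGCGGGAAccagg
TK1 at 77: ccgggcgctgATTGGccccatggcg
TK1 at 46: ccggctcgtgATTGGccagcacgcc
DTYMK held 2 NF-Y matches and DUT neither set of letters. The CHR letters, TTTGAA and the related word TTCGAA, found in 14.4% of promoters, occurred in RRM1 and DTYMK, and the Sp1 letters GGGCGG, found in 42.5%, in RRM1, TK1, DTYMK and DUT. A match describes the letters of these windows and is not a measured site.

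Because the members differed in direction, ratios between them within a library were examined, and these ratios were chosen after the levels had been seen. RRM2 transcripts per RRM1 transcript numbered 0.799, 1.16 and 1.65 as lowest, median and highest in SMAD4-low libraries, and 2.10, 3.13 and 5.07 in SMAD4-expressing ones. The mRNA of the small subunit exceeded that of the large one in 10 of 12 SMAD4-low libraries and in all 14 SMAD4-expressing libraries, and the ranges of the ratio did not overlap. The highest SMAD4-low ratio, 1.65, was that of library 26, in which RRM1 was lowest, and the highest of all, 5.07, was that of library 11.

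The salvage enzyme exceeded the de novo enzyme in mRNA in all 12 SMAD4-low libraries and in none of the 14 SMAD4-expressing libraries. The ratio of TK1 to TYMS was 1.17, 1.70 and 2.70 as lowest, median and highest in SMAD4-low libraries and 0.249, 0.574 and 0.760 in SMAD4-expressing ones. Although each gene alone overlapped between the states, their ratio did not. TK1 per RRM2 was also separate, at 1.02 to 2.25 in SMAD4-low and 0.208 to 0.536 in SMAD4-expressing libraries. By contrast, the ratio of the alternative small subunits, RRM2B per RRM2, overlapped widely, at 0.0624, 0.0819 and 0.115 in SMAD4-low and 0.0282, 0.0746 and 0.121 in SMAD4-expressing libraries. RRM2B per RRM1 (0.0721 to 0.127 against 0.0923 to 0.410) and DUT per DTYMK (1.63 to 3.15 against 1.25 to 2.56) also overlapped, so that 3 of the 6 ratios examined were separate. The share of separate ratios among other pairs of genes was not computed, so this count has no background beside it.

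**Figure D2:**
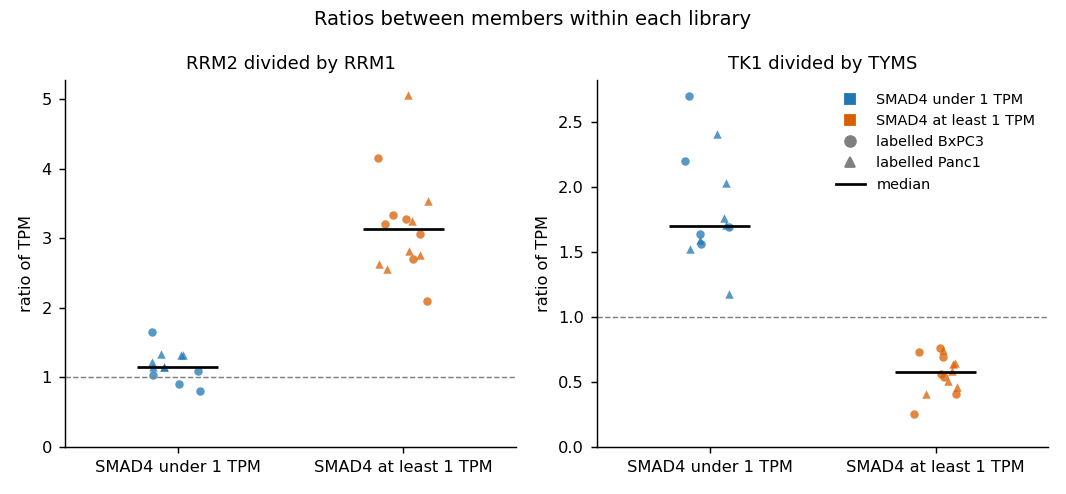
Ratio of TPM of RRM2 to RRM1 (left) and of TK1 to TYMS (right) in each library, by SMAD4 state (colour) and label (marker shape), with the median as a black line and a dashed line at 1. The ratios are separate between the states, 0.799 to 1.65 against 2.10 to 5.07 and 1.17 to 2.70 against 0.249 to 0.760.

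In order of median TPM the SMAD4-low libraries had DUT, TK1, TYMS, DTYMK, RRM2, RRM1 and RRM2B, and the SMAD4-expressing libraries RRM2, DUT, TYMS, DTYMK, TK1, RRM1 and RRM2B. RRM2 moved from the fifth place to the first and TK1 from the second to the fifth. Most neighbours in these orders overlapped in range, and only RRM1 and RRM2B were separate in both states. Within a library, TK1 exceeded TYMS in 12 of 12 SMAD4-low libraries and DTYMK exceeded TK1 in 14 of 14 SMAD4-expressing ones. Other neighbours were less regular. TYMS exceeded DTYMK in 6 of 12 and DTYMK exceeded RRM2 in 7 of 12 SMAD4-low libraries, and DUT exceeded TYMS in 9 of 14 and TK1 exceeded RRM1 in 10 of 14 SMAD4-expressing ones.

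Among SCDCLs of the same state, TYMS varied most of the members. The SD of its log2(TPM + 1) was 0.44 over the 12 SMAD4-low and 0.56 over the 14 SMAD4-expressing libraries, larger than that of 85.5% and 93.6% of genes with a mean of at least 10 TPM. Its highest library exceeded its lowest 2.69-fold in the SMAD4-low and 4.74-fold in the SMAD4-expressing libraries. TK1 had SDs of 0.40 and 0.41. DUT, second to TYMS with an SD of 0.41 in SMAD4-low libraries, had 0.17 in SMAD4-expressing ones, where 15.4% of genes varied less. The pooled SD of repeat quantifications on the log2 scale was at most 0.048, in RRM2B.

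The same few libraries held the extremes. Library 22, labelled BxPC3, was the highest SMAD4-expressing library for RRM1, RRM2, TYMS, DTYMK and DUT, and library 14, labelled Panc-1, was the lowest for RRM1, RRM2 and TK1. Among SMAD4-low libraries, library 3, labelled Panc-1, was highest for RRM1, RRM2, TYMS, TK1, DTYMK and DUT, and library 26, labelled BxPC3, was lowest for RRM1, RRM2B, TYMS, DTYMK and DUT.

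To ask whether the members varied together from SCDCL to SCDCL, Pearson's r of log2(TPM + 1) was computed within each state for the 21 pairs of members and for each member with a proliferation index, the mean z-score of 20 genes of DNA replication and mitosis. P-values came from permutation tests (100000 permutations, two-sided) and were adjusted over all 56 relations in both states. All pairs share their libraries and the constant TPM total. In each state 12 of 28 relations passed an adjusted p of 0.05. In SMAD4-low libraries all 21 pairs were positive, with a median r of 0.57, and in SMAD4-expressing libraries 13 were positive and 8 negative, with a median r of 0.38. An r of 0.57, that of RRM1 and TK1 in SMAD4-low libraries, was reached with RRM1 by 21.6% of genes with a mean of at least 10 TPM. For pairs that passed, between 0.844% and 14.1% of such genes reached the r with either gene in SMAD4-low libraries. For positive pairs that passed in SMAD4-expressing libraries it was 0.394% to 7.85%. No such share was computed for the index.

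RRM1 followed the proliferation index most closely in SMAD4-low libraries, with r = 0.94 (permutation p = 3e-05, adjusted p = 0.00056) and Spearman's rho = 0.92 (permutation p = 9e-05). In SMAD4-expressing libraries r was 0.91 (permutation p = 1e-05, the smallest the permutations can give, adjusted p = 0.00056) and rho 0.88 (permutation p = 5e-05). TYMS did likewise, with r = 0.86 and rho = 0.89 in SMAD4-low libraries (permutation p = 0.00041 and 0.00028) and r = 0.92 and rho = 0.89 in SMAD4-expressing ones (permutation p = 2e-05 and 0.0001). Without the 2 libraries farthest from the median of the gene, r was 0.88 and 0.82 for RRM1 and 0.87 and 0.92 for TYMS, and these were the only relations that still passed (permutation test, adjusted p at most 0.0176). Each also passed with any single library left out.

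The large subunit and thymidylate synthase were correlated with each other in both states. For RRM1 and TYMS r was 0.81 in SMAD4-low libraries (rho = 0.78, permutation p = 0.00133 and 0.00384, adjusted p = 0.00687 and 0.0154) and 0.82 in SMAD4-expressing ones (rho = 0.81, permutation p = 0.00048 and 0.00067, adjusted p = 0.00384 and 0.00536). Of genes with a mean of at least 10 TPM, 2.09% had an r with RRM1 at least as high in SMAD4-low and 1.09% in SMAD4-expressing libraries, and 5.48% and 1.47% had one with TYMS. Without the 2 farthest libraries r was 0.63 (permutation adjusted p = 0.152) and 0.72 (permutation adjusted p = 0.063), and the call was therefore lost with those libraries left out together, whereas it held with any single library left out.

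For TYMS and DUT, which act in sequence from dUTP to dTMP, r was 0.82 in SMAD4-low libraries (rho = 0.80, permutation adjusted p = 0.00455 and 0.0149) and 0.78 in SMAD4-expressing ones (rho = 0.75, permutation adjusted p = 0.00498 and 0.0149). Without the 2 farthest libraries r was 0.70 (permutation adjusted p = 0.0732) and 0.54 (permutation adjusted p = 0.167). RRM1 and DUT had r = 0.86 in SMAD4-low libraries (rho = 0.87, permutation adjusted p = 0.00154 and 0.00536), whereas r was 0.42 in SMAD4-expressing ones (permutation adjusted p = 0.196). DTYMK and DUT had r = 0.78 and -0.013 in the same order. Without the 2 farthest libraries, r in SMAD4-low libraries was 0.71 for RRM1 and DUT (permutation adjusted p = 0.0732) and 0.53 for DTYMK and DUT (permutation adjusted p = 0.226), and neither passed. With each library left out, r of RRM1 and DUT in SMAD4-expressing libraries ran from 0.18 without library 22 to 0.60 without library 19. The difference between the states was not tested for any pair.

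Among the subunits of ribonucleotide reductase, RRM1 and RRM2 had r = 0.44 and rho = 0.64 in SMAD4-low libraries (permutation adjusted p = 0.226 and 0.0658). There RRM2 passed by rho but not by r with TYMS (rho = 0.80, r = 0.62, permutation adjusted p = 0.0149 and 0.0629). The same held with TK1 (0.79 and 0.63, permutation adjusted p = 0.0149 and 0.0652) and the proliferation index (0.76 and 0.48, permutation adjusted p = 0.0194 and 0.172). In SMAD4-expressing libraries r was 0.65 and rho 0.62 (permutation adjusted p = 0.0299 and 0.0561). The latter r passed in 11 of 14 runs with a library left out and was 0.27 without the 2 farthest libraries. RRM2 and RRM2B, the alternative small subunits, had r = 0.31 and -0.055 (permutation adjusted p = 0.377 and 0.885). Without library 22, however, r in SMAD4-expressing libraries was 0.52 for RRM2B with RRM2, 0.11 with TYMS, 0.58 with DUT and 0.0019 with the proliferation index, so that the sign of these depended on that library. With TK1 it was -0.056, and 0.050 without library 20. RRM2B had no relation past the threshold in SMAD4-low libraries and 1 in SMAD4-expressing libraries, a negative one with DTYMK, where r was -0.67 and rho -0.63 (permutation adjusted p = 0.0283 and 0.0542). Without the 2 farthest libraries that r was -0.45 (permutation adjusted p = 0.244).

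**Figure D3:**
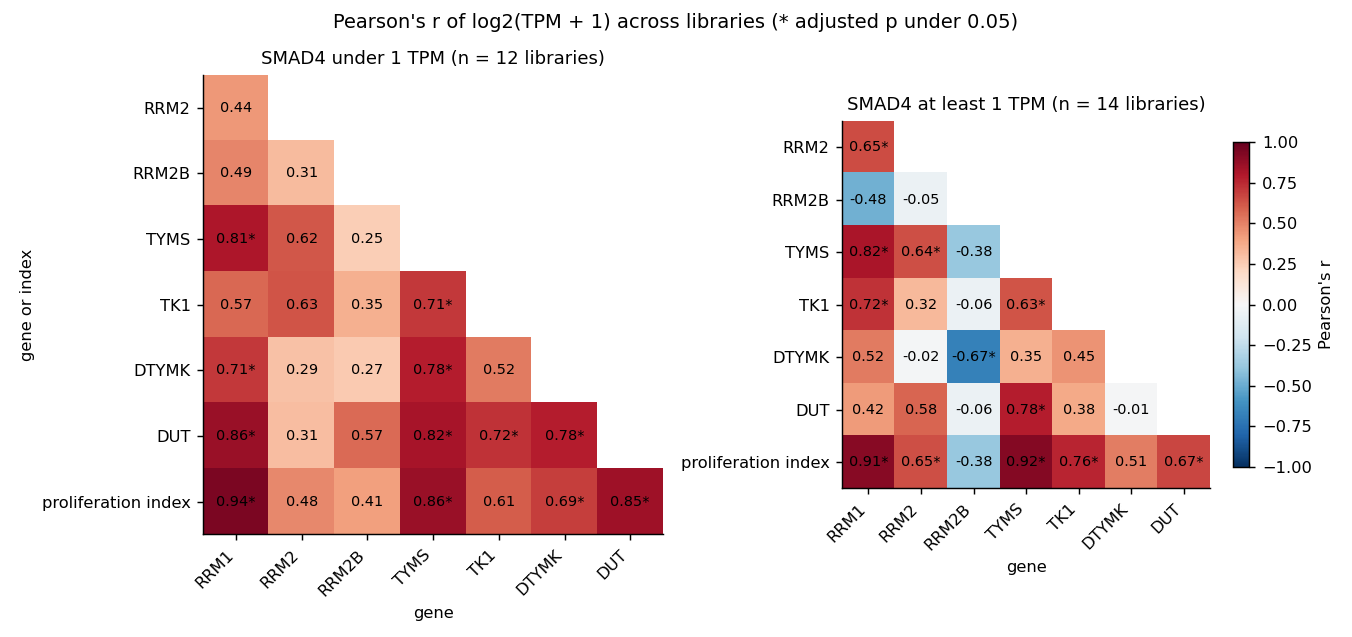
Pearson's r of log2(TPM + 1) between members, and between each member and the proliferation index, over the 12 SMAD4-low libraries (left) and the 14 SMAD4-expressing libraries (right). Asterisks mark an adjusted p under 0.05 in a permutation test, which 12 of 28 relations reached in each state. The RRM2B entries of the right panel are all negative, but most of their signs depended on 1 library. Those with RRM2, TYMS, DUT and the index turned positive without library 22, and that with TK1 without library 20.

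The genes whose pattern was most like that of a member were found among genes with a mean of at least 10 TPM, 9241 in SMAD4-low and 9147 in SMAD4-expressing libraries, as a description. For RRM1 these were CDC5L (r = 0.95), VARS1 (0.95) and EXO1 (0.94) over the 12 SMAD4-low libraries, and RFC3 (0.94), PSMB2 (0.93) and CSE1L (0.93) over the 14 SMAD4-expressing ones. TYMS was nearest to H2AX (0.97), PRKAR2A (0.97) and HNRNPM (0.97), and to RPAP3 (0.96), NDC80 (0.96) and VAPA (0.95). For TK1 the nearest were PCLAF (0.95), MRPS7 (0.94) and PCBP1 (0.93), and MRPL27 (0.94), LRRC59 (0.93) and BIRC5 (0.91).

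RRM2 was nearest to RNF8 (0.91), ADI1 (0.91) and MEA1 (0.90) in SMAD4-low libraries and to TWF1 (0.93), ALDH9A1 (0.92) and MMADHC (0.91) in SMAD4-expressing ones. RRM2B was nearest to PDE12 (0.88), NMI (0.87) and TOMM70 (0.86), and to CASP6 (0.94), GSKIP (0.93) and SMIM14 (0.91). DTYMK was nearest to HDHD5 (0.94), NUBP2 (0.93) and ARMC6 (0.92), and to PASK (0.89), MAFG (0.88) and HGS (0.86). DUT was nearest to EDC3 (0.98), HNRNPA1P33 (0.98) and UNC45A (0.98), and to PSME3 (0.92), PCNA (0.87), the sliding clamp of replication, and CBX3 (0.86). No gene was among the nearest 3 of the same member in both states.

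The labels, the only groups the depositors gave, were compared by the quasi-likelihood test of edgeR over all genes. Since SMAD4 went against the label of many libraries, these contrasts need not compare the lines BxPC3 and Panc-1. Over all 26 libraries none of the 7 members differed between the labels in edgeR's test, and no gene of 16008 did (0% called, and 2.29% at an unadjusted p under 0.05). DESeq2 called 2 genes, neither being a member. The log2 fold change of Panc-1-labelled over BxPC3-labelled libraries ran from -0.24 for TYMS (SE 0.26) to 0.15 for TK1 (SE 0.22). Without library 22 the TYMS estimate was -0.013 (SE 0.23).

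Within the SMAD4-low libraries, 7 labelled Panc-1 against 5 labelled BxPC3, TYMS was 0.45 higher on the log2 scale in the former (SE 0.20, edgeR p = 0.037, adjusted p = 0.421) and DTYMK 0.25 higher (SE 0.12, edgeR p = 0.0475, adjusted p = 0.433). Neither passed the adjusted threshold, which no gene of 16124 did with edgeR (0%), while 11.4% had an unadjusted p under 0.05 and DESeq2 called 35 genes, no member among them. The 5 libraries labelled BxPC3 held 72.7, 81.3, 109, 133 and 149.7 TPM of TYMS, and the 7 labelled Panc-1 had a lowest value of 95.3, a median of 141 and a highest of 196 TPM, so that the labels overlapped.

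Within the SMAD4-expressing libraries, 7 of each label, the estimate for TYMS had the opposite sign, -0.44 (SE 0.27, edgeR adjusted p = 0.982), and that for RRM1 was -0.26 (SE 0.18, edgeR adjusted p = 0.982). With each library left out, the TYMS estimate ran from -0.57 without library 18 to -0.19 (SE 0.22) without library 22, so its size depended on library 22. No gene of 15161 was called by edgeR (0%, and 4.62% unadjusted), and DESeq2 called 2, neither a member. The difference between the label contrasts of the states, tested as an interaction, was -0.88 for TYMS (SE 0.36, edgeR p = 0.0207, adjusted p = 0.618) and -0.35 for DTYMK (SE 0.17, edgeR p = 0.049, adjusted p = 0.640). Neither passed the adjusted threshold, which no gene of 17456 passed with edgeR (7.77% unadjusted), while DESeq2 called 15, none of them a member.

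**Figure D4:**
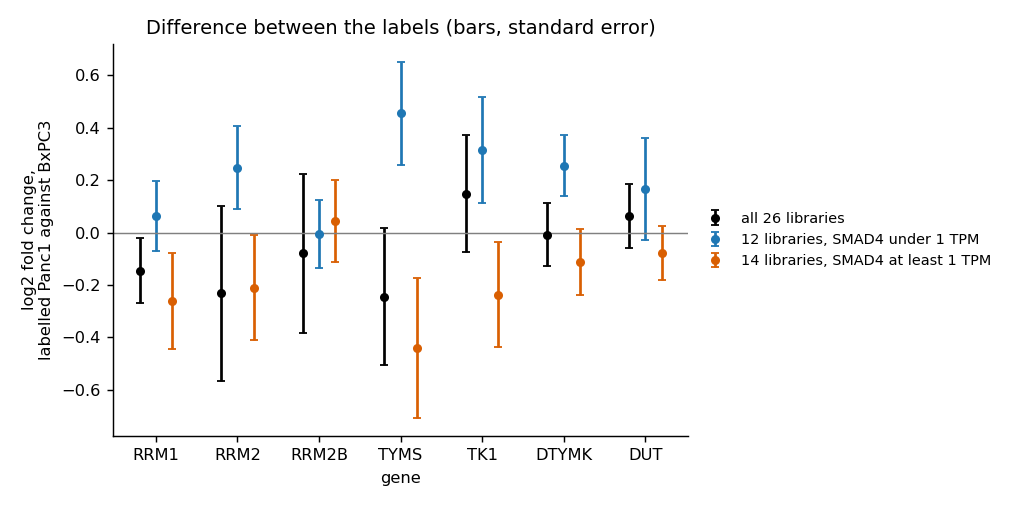
Log2 fold change of each member between libraries labelled Panc-1 and BxPC3 (edgeR, points, with the standard error as bars) over all 26 libraries, over the 12 SMAD4-low and over the 14 SMAD4-expressing libraries. TYMS has the largest estimates, 0.45 and -0.44 in the SMAD4 states, and no member passed an adjusted p of 0.05.

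The other genes of deoxynucleotide and folate metabolism divided evenly. Of 33 listed genes, all expressed, 4 were higher and 4 lower in SMAD4-expressing libraries without overlap. Among all genes 15.8% were higher and 14.5% lower without overlap. The median log2 difference of the list was -0.032 beside 0.023 for all genes. Among the 8 without overlap, the largest differences were in CDA, cytidine deaminase, which inactivates gemcitabine, at 17.9 to 57.5 TPM in SMAD4-low and 0.328 to 8.96 TPM in SMAD4-expressing libraries, in TXNRD1, which keeps thioredoxin reduced, at 45.1 to 64.5 and 119 to 399 TPM, and in MTHFD2, of mitochondrial folate metabolism, at 82.6 to 132 and 211 to 442 TPM. TXN, the thioredoxin that reduces ribonucleotide reductase, was on the other side, at 999.9 to 1746 TPM in SMAD4-low and 336 to 646 TPM in SMAD4-expressing libraries. CTPS1 and NUDT1 were higher, and CTPS2 and PNP lower, in SMAD4-expressing libraries without overlap. DCK, the kinase that activates gemcitabine, overlapped, at 34.0 to 42.5 and 27.5 to 50.4 TPM.

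Of the 20 proliferation genes, 1 was higher in SMAD4-expressing libraries without overlap, the mitotic kinase gene BUB1, and 4 were lower, MCM2, CDC6, CDC45 and FEN1, all of DNA replication. Among all genes 15.8% were higher and 14.5% lower without overlap. The median log2 difference of the list was -0.63, opposite in sign to the differences of RRM2 and TYMS. Besides BUB1, MKI67 (medians of 42.6 and 51.9 TPM) and E2F1 (37.0 and 40.3 TPM) were higher by median in SMAD4-expressing libraries, with overlap. Of the 3 with the largest differences among those without overlap, CDC45 had a median of 68.1 TPM in SMAD4-low and 27.2 TPM in SMAD4-expressing libraries, CDC6 was at 60.6 to 98.7 and 20.8 to 58.0 TPM, and MCM2 at 81.0 to 176 and 41.7 to 74.2 TPM.

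Of 15 p53 target genes, listed because RRM2B is one, 3 were higher (SESN2, ZMAT3 and XPC) and 3 lower (FAS, PHLDA3 and BTG2) in SMAD4-expressing libraries without overlap, beside 15.8% higher and 14.5% lower among all genes. FAS was at 15.4 to 47.0 TPM in SMAD4-low and 0.550 to 9.15 TPM in SMAD4-expressing libraries, PHLDA3 at 37.4 to 50.3 and 1.48 to 12.1 TPM, and BTG2 at 2.74 to 4.66 and 0.103 to 1.05 TPM. CDKN1A, the p53-induced inhibitor of cyclin-dependent kinases, overlapped, at 22.4 to 120.1 and 9.84 to 77.6 TPM.

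Genes near RRM2 on chromosome 2 differed with it. Of 17 expressed genes within 1 Mb, 14 were higher in SMAD4-expressing libraries without overlap and none was lower, with a median log2 difference of 1.64 beside 1.48 for RRM2 itself. HPCAL1, 91.2 kb away, had a median of 14.5 TPM in SMAD4-low and 280.1 TPM in SMAD4-expressing libraries, and ODC1, ornithine decarboxylase, at 61.2 to 93.6 and 132 to 336 TPM. ASAP2, ITGB1BP1, CPSF3, IAH1, YWHAQ, TAF1B, KLF11, CYS1, NOL10, PDIA6, SLC66A3 and ROCK2 made up the rest. Within 10 Mb by distance between gene centres, 30 of 48 genes were higher without overlap (62.5%) and 1 was lower, beside 15.8% higher among all genes.

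RRM1 lay in a similar neighbourhood without sharing its difference. Of 11 expressed genes within 1 Mb on chromosome 11, 6 were higher in SMAD4-expressing libraries without overlap (ZNF195, NUP98, PGAP2, RHOG, STIM1 and TRIM68), with a median log2 difference of 1.12 beside 0.25 for RRM1. STIM1, the nearest of them, was at 18.1 to 44.2 TPM in SMAD4-low and 51.1 to 103 TPM in SMAD4-expressing libraries. Within 10 Mb, 67 of 129 genes were higher without overlap (51.9%) and 7 were lower, with a median log2 difference of 0.97. Among all genes 15.8% were higher and 14.5% lower without overlap. DNA copy number was not analysed here, and its part in these differences was not tested.

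**Figure D5:**
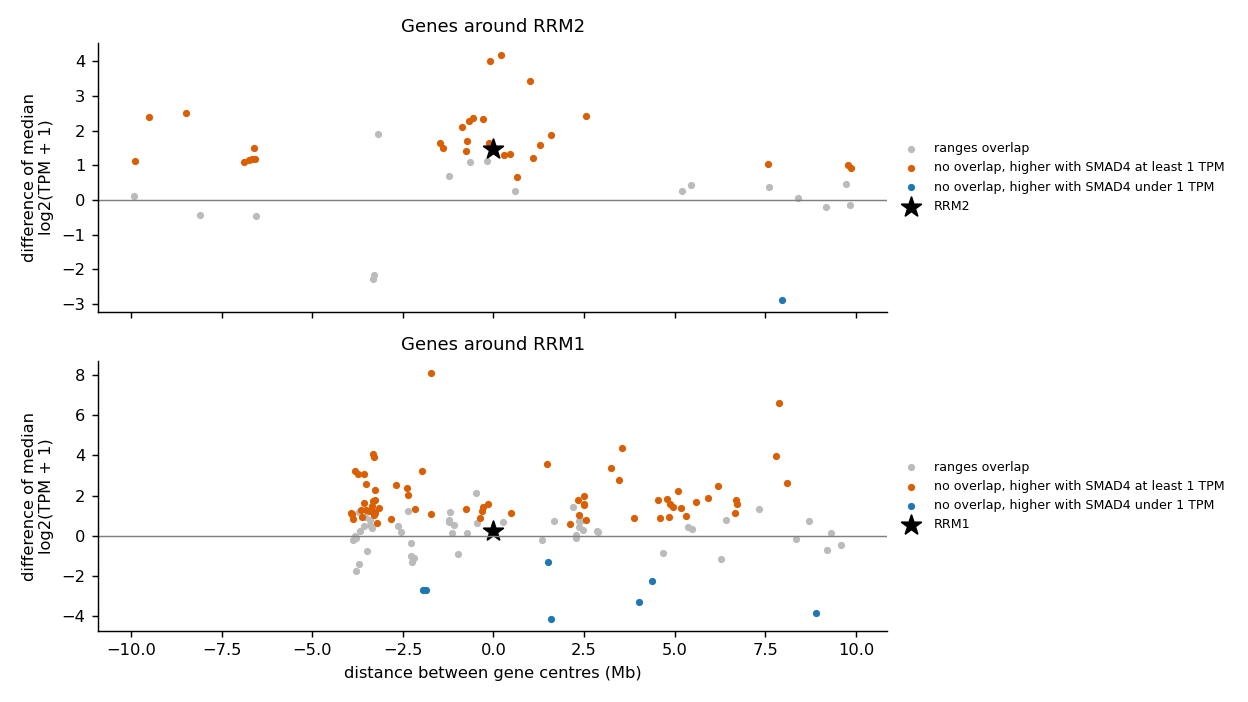
Difference of median log2(TPM + 1), SMAD4-expressing minus SMAD4-low libraries, of the genes with a mean of at least 1 TPM within 10 Mb of RRM2 (top, 48 genes) and RRM1 (bottom, 129 genes), against the distance between gene centres. Most points lie above 0 in both panels, and the star of RRM2, at 1.48, lies among its neighbours while that of RRM1, at 0.25, lies below most of its own.

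Around the other members a smaller share of genes was separate between the states than around RRM2 and RRM1. Among all genes 30.3% were separate. Within 1 Mb none of 6 was separate for TYMS, 1 of 7 for RRM2B (ATP6V1C1, higher in SMAD4-expressing libraries), 1 of 8 for DUT (MYEF2, higher) and 2 of 16 for DTYMK (KIF1A and FARP2, both higher). Of 19 genes around TK1, SEC14L1 was higher, and TMC6, TMC8 and LGALS3BP were lower, in SMAD4-expressing libraries without overlap. The 7 genes around RRM2B had log2 differences from -2.69 to 0.835, with a median of 0.048, beside 1.49 for RRM2B itself.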

How the data were processed

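The authors quantified paired-end, strand-specific reads of polyadenylated RNA with kallisto 0.46.1 against Ensembl transcripts of GRCh38 and summarised them per gene with tximport. The deposited table holds TPM, estimated counts (expected counts remade from TPM and mean transcript length, scaled to the library total, otherwise not normalized), effective lengths and 30 repeat quantifications per library from reads drawn again, of which 5 were used and 650 columns were not. Of 41078 genes, 36315 matched a symbol, and positions came from GENCODE 44. Total estimated counts limit the precision of low genes. Members and lists were chosen with earlier results of these data known. Named are the members, check genes, the 3 nearest genes per member and state, the 3 genes of each list with the largest difference among those without overlap, neighbours within 1 Mb without overlap, and overlapping genes and pseudogenes. Other list genes (TXN, CTPS1, CTPS2, NUDT1, PNP, DCK, BUB1, FEN1, MKI67, E2F1, SESN2, ZMAT3, XPC and CDKN1A) and cell type markers beyond the check genes were named after their values were seen.

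Estimated counts were rounded and tested with edgeR 4.0.16 (TMM, filterByExpr, quasi-likelihood test, Benjamini-Hochberg over all genes). DESeq2 1.42.0, limma 3.58.1, other scalings and filters, and leaving out each library were alternatives. TPM was analysed as log2(TPM + 1) in Python 3.11.15 with scipy 1.17.1. Scripts were tested on simulated data. The labels hold no drug response, so resistant and sensitive SCDCLs were not compared.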

Additional observations from a re-analysis of the deposited data

How the results depend on the processing

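The counts of members without overlap and the directions between the SMAD4 states held under each scaling, a SMAD4 threshold of 10 TPM, a pseudocount of 0.1 and each library left out. The scalings used counts remade from TPM, and the threshold of 10 TPM gives the same groups of libraries, so little could change under these. Label contrasts stayed at 0 genes in edgeR and limma, but DESeq2 called 2 over all libraries, 35 in SMAD4-low and 2 in SMAD4-expressing libraries and 15 for the interaction. With the SMAD4 state as covariate, the uncalled estimates of DTYMK (0.049) and RRM2B (0.018) turned positive over all libraries. Leaving out each library moved the estimates of RRM1 in SMAD4-low libraries between -0.0021 and 0.130, of RRM2B between -0.091 and 0.101 in SMAD4-low, -0.046 and 0.110 in SMAD4-expressing and -0.184 and 0.020 in all libraries, and of DTYMK in all libraries between -0.045 and 0.044. The 12 relations called in each state became 2 in each without the 2 farthest libraries, and 6 by Spearman's rho in SMAD4-expressing libraries, and the cause was not tested. Leaving out each library gave 8 to 13 in SMAD4-low and 7 to 13 in SMAD4-expressing libraries, the count of 7 without library 13, 14 or 22. An index without CCNA2, which was near 0 in a SMAD4-expressing library, was added after seeing the data and changed no call. No paired analysis was possible because the library numbers of the labels are each used once and are not shared between groups. With 1 library per SCDCL, differences between clones and between preparations cannot be told apart.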
